A study of Mus musculus with 8 samples.

Results

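The Wnt ligands, their Frizzled receptors and the R-spondins, together with *Lrp5*, *Lrp6*, *Ror1*, *Ror2*, *Ryk* and *Porcn*, were followed by bulk RNA-seq through normal mouse prostate, prostatic intraepithelial neoplasia (PIN) and prostatic adenocarcinoma (PCa). They were chosen by symbol, with earlier results of these data known, and 39 of the 27036 genes in the count table belong to them. These are 19 Wnt ligands, 10 Frizzled receptors, 4 R-spondins and the 6 other genes. The PIN and PCa tissues came from mice of the genotype R26 mTmG/hAR:Osr1 Cre/+, where Cre expressed from the *Osr1* gene switches on a human androgen receptor transgene (hARtg) and a membrane GFP reporter in cells of the *Osr1* lineage. They were selected under the microscope to be mostly atypical or tumor cells. The mice were of a mixed C57BL/6 and 129S1/SvImJ background. The controls, named WT, were normal prostates of mice matched for sex and age. The study's description of the same libraries gives them the Osr1 Cre and mTmG alleles as well, so that only the hAR transgene then separates the genotypes. PIN and PCa share 1 genotype and differ in the lesion taken. In this model PIN appears earlier in life than PCa, and as the age behind each library is not given in the sources used here, age and lesion cannot be told apart. There were 3 WT, 3 PIN and 2 PCa libraries. The labels do not say that each came from a separate animal, so that p-values measure the spread between these libraries. The transgene itself was not analysed here.

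Wnt proteins are secreted lipid-modified signals. Porcupine, the product of *Porcn*, attaches the lipid, and Frizzled proteins receive the signal at the cell surface. With LRP5 or LRP6 as co-receptor the signal stabilizes β-catenin, which activates genes through TCF/LEF factors, while ROR1, ROR2 and RYK serve mainly Wnt signaling that does not need β-catenin. R-spondins raise the sensitivity of a cell to Wnt by keeping Frizzled receptors from being removed by the ligases ZNRF3 and RNF43. In the prostate, signals of this kind pass between stroma and epithelium during budding and regeneration.

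Values are CPM, the deposited counts scaled to a common library size by the trimmed mean of M-values. Levels of different genes are compared only as CPM per kilobase of exon. A gene was tested when it had more than 1 CPM in at least 2 libraries. It was called at a log2 fold change beyond 1 in either direction and an adjusted p under 0.05 in the quasi-likelihood test of edgeR, with p adjusted by Benjamini-Hochberg over all 14034 genes tested. Of the 39 members, 27 were tested, namely 9 Wnt ligands, 9 Frizzled receptors, 3 R-spondins and all 6 others. The 12 below the filter were *Wnt1*, *Wnt3*, *Wnt3a*, *Wnt7a*, *Wnt8a*, *Wnt8b*, *Wnt9b*, *Wnt10b*, *Wnt11*, *Wnt16*, *Fzd9* and *Rspo4*. *Wnt1* had 0 counts in every library. *Wnt16* passed 1 CPM in 1 library alone, and the other 10 remained below 1 CPM throughout.

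The libraries held 21751803 to 29730420 counts, so that 3 counts were worth 0.0965 to 0.148 CPM. The common biological coefficient of variation was 0.489, and the 2 PCa libraries resembled each other less (Spearman correlation across genes 0.839) than did libraries within WT (0.923 to 0.961) or PIN (0.964 to 0.983). Summed smooth muscle markers (6 genes, none at 0) stood at 1940 to 4695 CPM in WT and 3072 to 5498 CPM in PIN but at 58.2 CPM in PCa 1 and 36.6 CPM in PCa 2. Summed fibroblast markers (6 genes, none at 0) ran from 521 to 1025 CPM in WT and from 759 to 986 CPM in PIN, with 744 CPM in PCa 1 and 282 CPM in PCa 2. The PCa libraries also differed in basal markers (608 and 27.4 CPM, 5 genes) and leukocyte markers (383 and 33.4 CPM, 7 genes). Luminal markers (7 genes) summed to 3560 and 3137 CPM in PCa and 10850 to 33130 CPM in WT, where *Pbsn*, a secretory gene and the only one of them called lower, had 6552 to 23970 CPM in WT and 8.53 and 60.8 CPM in PCa. The keratin *Krt8* was within the WT range at 453 and 333 CPM in PCa. Seminal vesicle markers (6 genes) summed to 14780 CPM in WT 1, 3730 CPM in PCa 1 and 285 CPM in PCa 2. They summed to 2.02 to 28.0 CPM in PIN and to at most 0.0732 CPM in WT 2 and WT 3. Single genes differed, with *Svs1* at 217 CPM in WT 1 and 0 in PCa 1. *Svs3a* had 47.6 CPM in WT 1 and 972 and 190.5 CPM in PCa. WT 2 had the lowest fibroblast, smooth muscle and endothelial marker sums of the WT libraries. The part of these differences in the values below was not tested, and in bulk tissue fewer cells of a type and less RNA per cell cannot be told apart. The library numbers in the labels fall into 3 series (WT 1, then WT 2 and WT 3, then all PIN and PCa), so that series and condition cannot be told apart in comparisons with WT, while PCa and PIN lie within 1 series.

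Across the members, no call was made between PIN and WT, 5 of 27 were called between PCa and WT and 3 of 27 between PCa and PIN. *Wnt4*, *Wnt10a* and *Fzd6* were higher in PCa than in WT, and the R-spondins *Rspo2* and *Rspo3* were lower. Over all genes tested, 4.35% were called higher and 4.18% lower in PCa than in WT, against 3 and 2 of the 27 members. Against PIN, *Fzd6* was higher and *Rspo2* and *Rspo3* were lower, where 2.55% of all genes were called higher and 3.17% lower. The median log2 fold change of the 27 members was -0.23 for PCa compared with WT and -0.24 for PCa compared with PIN, where the median of all genes tested was 0.01 and 0.07. Both comparisons use the same PCa libraries. A plot of the 5 called members shows the single libraries.

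**Figure D1:**
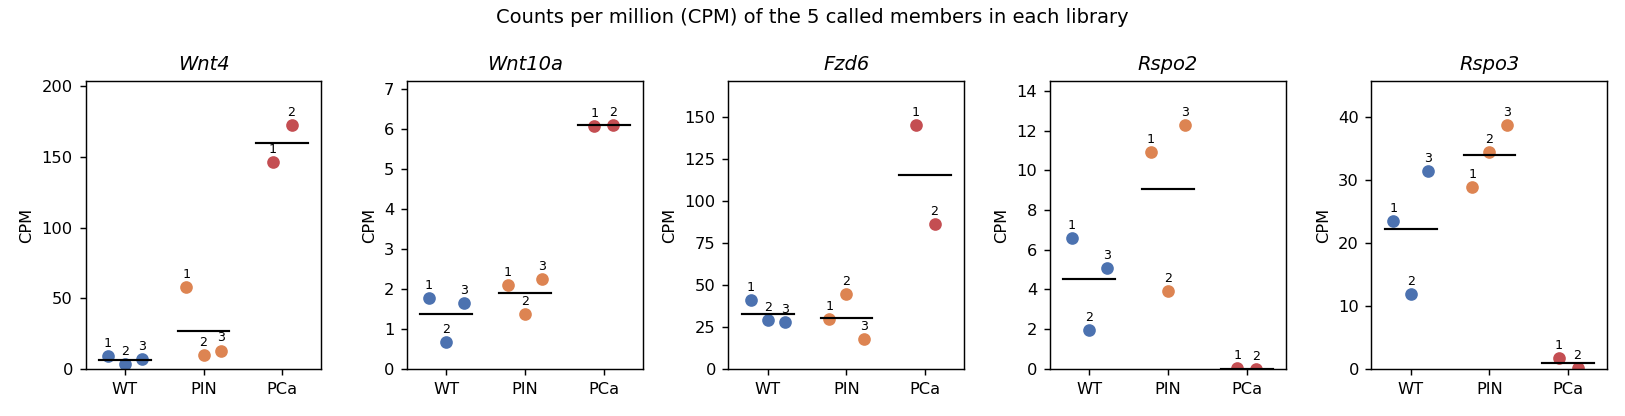
CPM (y axis, linear, from 0) of *Wnt4*, *Wnt10a*, *Fzd6*, *Rspo2* and *Rspo3* in 3 WT, 3 PIN and 2 PCa libraries. Points are libraries marked with their replicate number and bars are group means. Both PCa points lie above every WT and PIN point for *Wnt4*, *Wnt10a* and *Fzd6* and below every one for *Rspo2* and *Rspo3*.

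Among the ligands, *Wnt4* showed the largest called difference. *Wnt4* encodes a ligand used in kidney, female reproductive tract and mammary development, and lies on chromosome 4 of mm9 from 136833404 to 136855641. It stood at 8.95, 3.35 and 7.06 CPM in WT 1, 2 and 3, at 58.0, 9.89 and 13.03 CPM in PIN 1, 2 and 3, and at 147 and 173 CPM in PCa 1 and PCa 2. Every PIN library was thus above every WT library and both PCa libraries were above every PIN library, with PIN 1 far above the other PIN libraries. PCa exceeded WT 24.7-fold (log2 fold change 4.63, standard error 0.81, adjusted p = 0.0186, edgeR). Without WT 3 the log2 fold change was 4.70 and the call was lost (adjusted p = 0.0747 by the same edgeR test), and it was kept in the other 14 of 15 alternative settings. Between PCa and PIN the log2 fold change was 2.57 (standard error 0.75) and did not pass (adjusted p = 0.0924, edgeR), while without PIN 1 it was 3.82 and passed, and DESeq2 called it with all libraries. Between PIN and WT the log2 fold change was 2.06 (standard error 0.71) with an unadjusted p of 0.0203 and an adjusted p of 1 in the same edgeR model. On leaving out 1 library this log2 fold change ranged from 0.82 to 2.46.

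*Wnt10a*, whose product signals through β-catenin in skin, hair and teeth, was called at a much lower level. Its values were 1.78, 0.680 and 1.65 CPM in WT, 2.09, 1.38 and 2.26 CPM in PIN, and 6.08 and 6.10 CPM in PCa. WT and PIN overlapped, and the PCa libraries lay close to each other above both. The gene lies on chromosome 1 of mm9 from 74838090 to 74850753. In PCa it was 4.44-fold higher than in WT (log2 fold change 2.15, standard error 0.52, adjusted p = 0.0445, edgeR). This call sat near the threshold and held in 4 of 15 alternatives, and upper-quartile normalization lost it (adjusted p = 0.0538, edgeR). It was lost without WT 1, WT 2 or WT 3 (adjusted p = 0.0737, 0.0526 and 0.110, edgeR), without PIN 1, PIN 2 or PIN 3 (0.0861, 0.0727 and 0.0896) and without PCa 2 (0.0726), with log2 fold changes of 1.83 to 2.38. Against PIN the log2 fold change was 1.67 and the adjusted p was 0.103 (edgeR), and without WT 2 or with DESeq2 that comparison passed.

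*Wnt7b* was the ligand with the highest level per kilobase in all 3 WT libraries. Its product is an epithelial signal in lung, kidney and bladder. *Wnt7b* was found at 37.0, 46.0 and 30.4 CPM in WT, 24.7, 29.1 and 31.2 CPM in PIN, and 64.5 and 45.2 CPM in PCa. The PCa libraries lay above every PIN library, and PCa 2 fell within the WT range. Its log2 fold change was 0.54 in PCa against WT (adjusted p = 0.224, edgeR) and 0.95 in PCa against PIN (adjusted p = 0.0727), where it passed without PCa 2 (1.21).

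A second set of ligands separated the tumors from each other. *Wnt5a*, whose product acts mainly without β-catenin, had 25.2, 14.4 and 23.9 CPM in WT, 36.0, 27.8 and 53.8 CPM in PIN, 23.2 CPM in PCa 1 and 186 CPM in PCa 2. Its relative *Wnt5b* had 2.47, 1.59 and 3.66 CPM in WT, 2.02, 6.82 and 1.13 CPM in PIN, 0.322 CPM in PCa 1 and 62.1 CPM in PCa 2. *Wnt6*, an epithelial ligand, had 2.47, 0.408 and 1.76 CPM in WT, 0.972, 2.38 and 1.73 CPM in PIN, 1.16 CPM in PCa 1 and 46.4 CPM in PCa 2. For each of these ligands PCa 2 was above every other library, whereas PCa 1 was within the WT range or, for *Wnt5b*, below it. PCa 2 exceeded PCa 1 by 7.99-fold for *Wnt5a*, 193-fold for *Wnt5b* and 40.1-fold for *Wnt6*.

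*Wnt16*, a ligand known from bone and skin, was not detected in any WT or PIN library. PCa 1 held 2 counts of it and PCa 2 held 573, or 19.7 CPM. That is at least 132-fold above the level that 3 counts would have had in the shallowest WT or PIN library, a floor taken per library that covers counting error only. As it passed 1 CPM in 1 library, it was not tested.

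With all libraries, none of *Wnt5a*, *Wnt5b* and *Wnt6* was called by edgeR, while DESeq2 called all of them in PCa against WT and *Wnt6* also against PIN. Their log2 fold changes in PCa against WT were 2.30, 3.60 and 3.94, with edgeR's adjusted p at 0.0921, 0.181 and 0.0991. Without PCa 1 they were 3.14, 4.60 and 4.92, and without PCa 2 the values of *Wnt5b* and *Wnt6* turned to -2.97 and -0.40. For *Wnt5a* the lowest value on leaving out 1 library was 0.15. *Wnt2*, a ligand of mesenchyme in lung and other organs, went the other way, with 9.25, 3.08 and 10.3 CPM in WT, 9.79, 10.4 and 11.3 CPM in PIN, 7.59 CPM in PCa 1 and 0.377 CPM in PCa 2. PCa 1 kept *Wnt2* at the level of WT, where PCa 2 was below every other library. Its log2 fold change against WT was -0.92 (adjusted p = 0.607, edgeR), 0.03 without PCa 2 and -4.29 without PCa 1, where it passed. Of the other ligands tested, *Wnt2b* had 0.695 to 1.903 CPM in WT, 0.432 to 1.17 CPM in PIN and 0.257 and 0.171 CPM in PCa, below every WT and PIN library (log2 fold change against WT -2.65, adjusted p = 0.0799, edgeR, and called by DESeq2), and *Wnt9a* had 1.94 to 3.07 CPM in WT and 2.06 and 0.926 CPM in PCa. A plot of single libraries shows the members that parted the tumors.

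**Figure D2:**
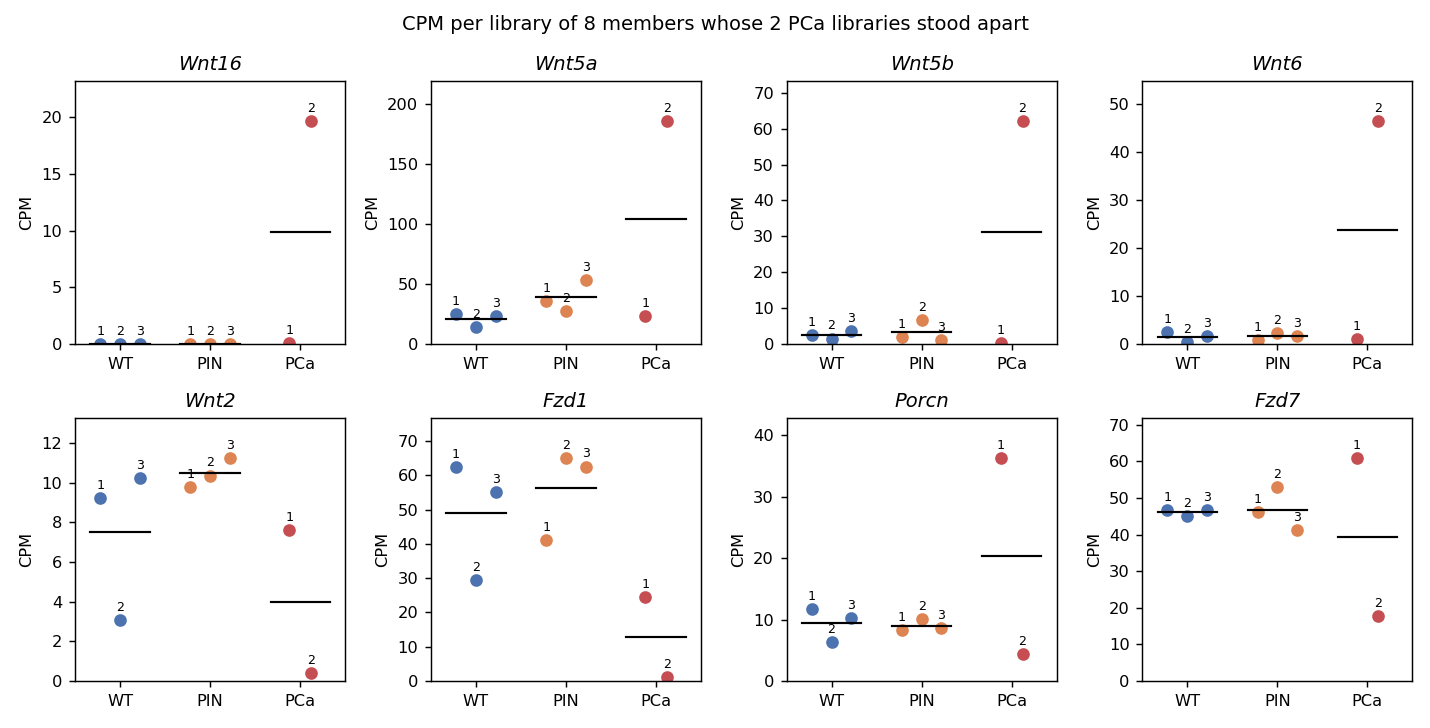
CPM (y axis, linear, from 0) per library of *Wnt16*, *Wnt5a*, *Wnt5b*, *Wnt6*, *Wnt2*, *Fzd1*, *Porcn* and *Fzd7*, with points numbered by replicate and bars at group means. These panels were picked because the 2 PCa points lie far apart. PCa 2 is the highest library for the first 4 genes and the lowest for the other 4.

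Added up per kilobase, the ligand transcripts reached 17.0 to 22.6 CPM per kilobase in WT, 22.8 to 31.7 in PIN, 60.0 in PCa 1 and 129 in PCa 2. The sums of the groups did not overlap, and this sum was not tested. *Wnt7b* made up 37.0%, 61.2% and 34.0% of the sum in WT 1, 2 and 3 and also led in PIN 2 and PIN 3. *Wnt4* led in PIN 1 with 43.7%, in PCa 1 with 58.2% and in PCa 2 with 31.9%. In PCa 2 the next ligands were *Wnt5a* at 23.7 and *Wnt5b* at 23.6 CPM per kilobase, while in PCa 1 *Wnt7b* followed at 14.6. The ligand mixture was thus led by *Wnt4* in both tumors and by different genes behind it.

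**Figure D3:**
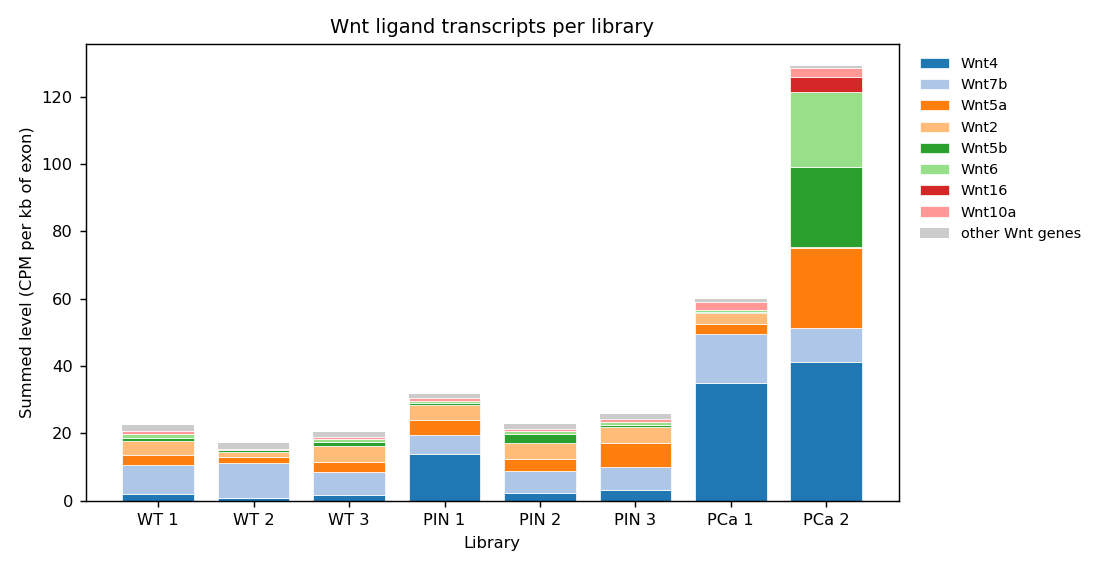
Stacked level (CPM per kilobase of exon, linear axis from 0) of Wnt ligand genes in each of the 8 libraries, with the 8 named ligands in color and the others in grey. Bars reach 17.0 to 31.7 in WT and PIN, 60.0 in PCa 1 and 129 in PCa 2.

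Promoter sequence is shown for *Wnt4*, which was high in both tumors, and for *Wnt5b* and *Wnt16*, which were high in PCa 2 alone. RefSeq promoters (GRCm38.p6, 250 bases before and 50 after a start) were matched for 26 of the 39 members, with 29 starts among them. *Fzd2*, *Fzd3*, *Fzd6*, *Fzd8*, *Lrp5*, *Lrp6*, *Porcn*, *Rspo2*, *Rspo3*, *Wnt5a*, *Wnt7b*, *Wnt8a* and *Wnt10a* were not matched. The TCF/LEF core CTTTGAT, on either strand, was found in 2 of the 29 (*Wnt11* and *Wnt5b*) and in 3.73% of all 32851 promoters in the table. The androgen receptor half-site AGAACA, on either strand, was found in 3 of the 29 (*Fzd4*, *Wnt5b* and *Wnt8b*) and in 19.0% of all promoters, and the letters of the motifs share no overlap. A match is a description of letters and not of binding. *Wnt5b* has 3 listed starts, and its TCF/LEF core begins 71 bases before the one shown, in capitals. Its androgen receptor half-site lies at another start, which is not shown. *Wnt16* and *Wnt4* hold neither motif, and for *Wnt4*, whose start differs between annotations, the 100 bases farthest upstream are given. The sequences of these starts are shown 5′ to 3′ on the strand of the gene.
Wnt5b, chr6:119449387-119449636, minus strand: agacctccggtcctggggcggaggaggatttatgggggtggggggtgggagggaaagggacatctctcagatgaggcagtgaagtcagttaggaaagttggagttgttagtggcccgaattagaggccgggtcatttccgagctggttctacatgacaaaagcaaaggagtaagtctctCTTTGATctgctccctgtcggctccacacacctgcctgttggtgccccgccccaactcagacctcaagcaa
Wnt16, chr6:22287977-22288226, plus strand: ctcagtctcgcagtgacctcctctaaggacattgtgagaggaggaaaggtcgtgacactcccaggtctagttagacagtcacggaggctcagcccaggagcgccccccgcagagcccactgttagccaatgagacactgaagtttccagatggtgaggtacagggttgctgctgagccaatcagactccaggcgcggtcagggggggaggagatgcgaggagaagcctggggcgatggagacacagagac
Wnt4, chr4:137277385-137277484, plus strand: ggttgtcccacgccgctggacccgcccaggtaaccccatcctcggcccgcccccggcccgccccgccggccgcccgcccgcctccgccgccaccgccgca

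Among the Frizzled receptors, *Fzd6* alone was called. FZD6 is a receptor best known for planar polarity of skin and hair, and its gene lies on chromosome 15 of mm9 from 38837879 to 38869732. *Fzd6* stood at 40.7, 29.1 and 27.7 CPM in WT, 29.6, 44.3 and 17.8 CPM in PIN, and 145 and 86.0 CPM in PCa 1 and PCa 2. The ranges of WT and PIN overlapped, and both tumors lay above them. Compared with WT it was 3.55-fold higher in PCa (log2 fold change 1.83, standard error 0.41, adjusted p = 0.0350, edgeR), and compared with PIN 3.78-fold (1.92, standard error 0.41, adjusted p = 0.0390). The direction was kept in all 15 alternatives of both comparisons, and the calls in 8 and in 6 of them. Against WT the call was lost without WT 1, WT 2, WT 3, PIN 1 or PCa 1 (adjusted p = 0.0630, 0.0823, 0.115, 0.0689 and 0.0715, edgeR). Against PIN it was lost without WT 1, WT 3, PIN 1, PIN 2, PIN 3 or PCa 1 (adjusted p = 0.0567, 0.0735, 0.121, 0.0606, 0.122 and 0.0617) and with upper-quartile normalization (0.0530).

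The other 8 Frizzled receptors tested had log2 fold changes below 0 in PCa against WT with none called by edgeR, and those of *Fzd2*, *Fzd3*, *Fzd5* and *Fzd7* turned above 0 in 1 to 3 of the 15 alternatives. *Fzd1* and *Fzd7*, receptors of the β-catenin branch, were the leading Frizzled transcripts per kilobase in WT and PIN. *Fzd1* had 62.5, 29.3 and 55.2 CPM in WT, 41.1, 65.1 and 62.6 CPM in PIN, 24.5 CPM in PCa 1 and 1.03 CPM in PCa 2. *Fzd7* had 46.7, 45.2 and 46.7 CPM in WT, 46.2, 52.9 and 41.2 CPM in PIN, 61.0 CPM in PCa 1 and 17.7 CPM in PCa 2. *Fzd1* was thus below WT in both tumors and *Fzd7* above WT in PCa 1 and below it in PCa 2. The log2 fold change of *Fzd1* against WT was -1.94 (adjusted p = 0.271, edgeR) with all libraries and -5.56 without PCa 1 (adjusted p = 0.00288), where it passed. That of *Fzd7* was -0.23 with all libraries, 0.42 without PCa 2 and -1.38 without PCa 1, where it passed.

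*Fzd4*, *Fzd8* and *Fzd10* were lower in both tumors than in any WT or PIN library. They were not called by edgeR, whereas DESeq2 called all of them against WT and limma-trend called *Fzd8*. *Fzd4*, the receptor of norrin in vessels, had 17.0 to 25.3 CPM in WT, 15.8 to 20.2 CPM in PIN and 12.4 and 5.62 CPM in PCa (log2 fold change against WT -1.18, adjusted p = 0.0964, edgeR). *Fzd8* had 6.19 to 9.20 CPM in WT, 4.90 to 5.76 CPM in PIN and 3.06 and 0.617 CPM in PCa (log2 fold change against WT -2.15, adjusted p = 0.0836). *Fzd10* had 2.27 to 6.34 CPM in WT, 0.904 to 2.62 CPM in PIN and 0.451 and 0.720 CPM in PCa (log2 fold change against WT -2.69, adjusted p = 0.0728). For *Fzd2*, *Fzd3* and *Fzd5* the tumors were not both on 1 side of the WT range. Over all roles, 3 of the 27 members were above and 7 below the whole WT range in both tumors, where 17.7% and 19.6% of all genes tested were.

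As a sum, Frizzled transcripts reached 47.9 to 60.0 CPM per kilobase in WT, 45.8 to 55.1 in PIN, 71.4 in PCa 1 and 38.2 in PCa 2, so the tumors lay on either side of the other groups. *Fzd1* or *Fzd7* led in every WT and PIN library with 19.4% to 29.9% of the sum. In PCa 1 *Fzd6* held 49.8% and in PCa 2 55.1%. The stacked levels show this change of leading receptor.

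**Figure D4:**
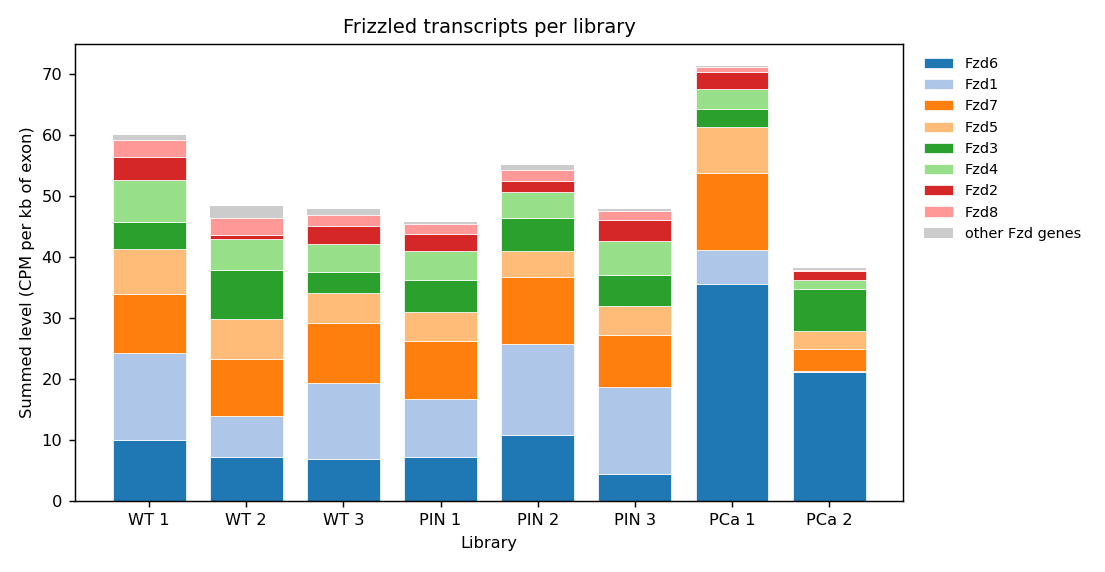
Stacked level (CPM per kilobase of exon, linear axis from 0) of Frizzled genes in each of the 8 libraries. *Fzd6*, at the foot of each bar, takes 49.8% of PCa 1 and 55.1% of PCa 2, and *Fzd1* and *Fzd7* lead in WT and PIN.

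The R-spondins gave the largest falls. *Rspo2* and *Rspo3* encode secreted enhancers of Wnt signaling that in many organs are made by stroma. *Rspo3*, at 29172915 to 29255673 of chromosome 10 (mm9), had 23.4, 11.9 and 31.4 CPM in WT, 28.8, 34.4 and 38.7 CPM in PIN, and 1.80 and 0.103 CPM in PCa, the last from 3 counts. *Rspo2*, at 42852357 to 43002364 of chromosome 15, had 6.58, 1.95 and 5.09 CPM in WT, 10.9, 3.93 and 12.3 CPM in PIN, 0.0322 CPM (1 count) in PCa 1 and 0 in PCa 2. For both genes every PIN and WT library was far above both tumors.

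Compared with WT, *Rspo3* was 23.1-fold lower in PCa (log2 fold change -4.53, standard error 1.02, adjusted p = 0.0363, edgeR), and compared with PIN it was 35.4-fold lower (-5.14, standard error 1.05, adjusted p = 0.0350). Without PCa 1 the log2 fold changes were -7.68 and -8.29, and without PCa 2 -3.61 and -4.21, and the call held in each case. The call against WT was lost without WT 1, WT 3, PIN 1, PIN 2 or PIN 3 (adjusted p = 0.0737, 0.0959, 0.0706, 0.0696 and 0.0759, edgeR). That against PIN was lost without the same libraries (adjusted p = 0.0603, 0.0675, 0.0907, 0.102 and 0.122). With only the groups compared in the model, and with the replicate number as a block, neither call passed (adjusted p = 0.142 and 0.0697 against WT, 0.0877 and 0.0687 against PIN), so that each held in 8 of 15 alternatives.

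For *Rspo2*, 315 counts in WT stood against 1 in PCa, which is 273-fold lower after library size with a 95% counting interval of 48.6 to 10800 (exact binomial). The 743 counts in PIN gave 537-fold, with an interval of 96.1 to 21200. These intervals cover counting error only. The edgeR model gave an adjusted p of 0.0118 against WT and 0.0133 against PIN, with fitted log2 fold changes of -7.74 and -8.74 that depend on the prior count. The call against PIN was lost without PIN 3 (adjusted p = 0.0548, edgeR), and that against WT was lost with only these groups in the model (adjusted p = 0.0641) and on leaving out no single library.

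The smooth muscle markers given above moved with these genes, at 36.6 and 58.2 CPM in PCa against at least 1940 CPM in the other libraries, and 5 of the 6 were called lower in PCa against WT and against PIN. Of the 6 fibroblast markers none was called by edgeR in either comparison. Their median log2 fold change was -0.86 against WT and -1.20 against PIN, and 3 of the 6 were lower in both tumors than in every PIN library. In PCa 2 *Pdgfra* was at 3.09 CPM, against at least 20.8 CPM in WT, and *Lum* at 0.549 CPM, against at least 15.7 CPM in WT. *Col1a1* in PCa 2, at 29.4 CPM, lay within the WT range, and the other fibroblast markers lay below theirs. In PCa 1, where *Rspo2* and *Rspo3* were also low, each fibroblast marker was within or above the WT range. *Pdgfra* had 29.25 CPM there and *Lum* 49.7 CPM, the latter above every WT and PIN library. The part of smooth muscle or fibroblast content in the R-spondin values was not tested. *Rspo1* was low and uneven, with 0.989, 2.54 and 0.329 CPM in WT, 0.576, 1.24 and 1.09 CPM in PIN, 1.64 CPM in PCa 1 and 0 in PCa 2. The difference from WT was -0.64 on the log2 scale (adjusted p = 0.815, edgeR), 0.38 without PCa 2 and 0.33 without WT 2, and passed without PCa 1. *Rspo4* reached at most 0.0366 CPM.

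None of the co-receptors and other Wnt receptors was called. *Lrp6* had 140, 201 and 154 CPM in WT, 174, 137 and 172 CPM in PIN, and 145 and 171 CPM in PCa, which against WT is a log2 fold change of -0.07 with a standard error of 0.23. *Lrp5* had 99.5, 81.7 and 83.5 CPM in WT, 98.1, 74.1 and 96.4 CPM in PIN, and 75.7 and 139.5 CPM in PCa (0.29 with a standard error of 0.28 on the same scale). *Ryk* had 57.2, 66.3 and 53.3 CPM in WT, 52.5, 61.1 and 54.7 CPM in PIN, and 66.9 and 41.9 CPM in PCa (-0.12 with a standard error of 0.24). For *Lrp5* and *Ryk* the tumors fell on opposite sides of the WT range, and no adjusted p for these 3 genes was under 0.560 in PCa against WT (edgeR). *Ror1* and *Ror2*, receptors of WNT5A, were at 1.81 to 6.33 and 1.99 to 9.20 CPM in WT, with WT 2 lowest for both, and at 3.06 and 2.33 and at 2.57 and 8.37 CPM in PCa.

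*Porcn* split the tumors in the direction opposite to *Wnt5b*. It had 11.8, 6.39 and 10.2 CPM in WT, 8.32, 10.02 and 8.55 CPM in PIN, 36.3 CPM in PCa 1 and 4.32 CPM in PCa 2. PCa 1 was above and PCa 2 below every other library, 8.41-fold apart. The log2 fold change against WT was 1.11 (adjusted p = 0.366, edgeR), 1.96 without PCa 2, where it passed, and -1.12 without PCa 1.

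Set against WT 1 library at a time, 8 of the 27 tested members lay above and 10 below the WT range in PCa 1, and 7 above and 14 below in PCa 2. Of all genes tested, 32.9% lay above and 32.3% below in PCa 1, and 31.9% above and 36.0% below in PCa 2. Both tumors were above WT for 3 members and below for 7, against 17.7% and 19.6% of all genes tested. They lay on opposite sides for 6 (22.2%), where 12.2% of all genes did, namely *Fzd5*, *Fzd7*, *Ryk* and *Porcn* (above in PCa 1, below in PCa 2) and *Wnt5b* and *Lrp5* (the reverse). With 1 library each, these differences between tumors have no replicate. The plot of both tumors against the WT mean shows the 5 called members where both tumors lay on the same side of WT, and *Wnt5b* and *Porcn* where they lay on opposite sides.

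**Figure D5:**
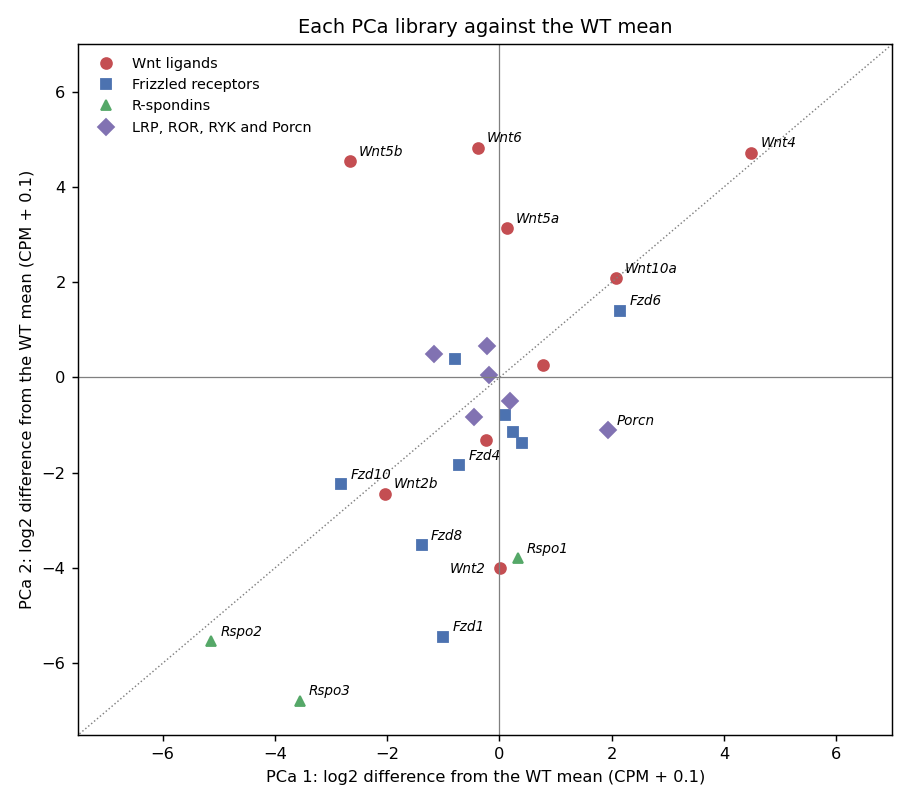
Difference of PCa 1 (x axis) and PCa 2 (y axis) from the WT mean for the 27 tested members, each as log2 of CPM plus 0.1, with the shape and color of points giving the role and a dotted line where the tumors are equal. *Wnt4* lies at 4.48 and 4.72 near the line, *Rspo3* at -3.55 and -6.78, and *Wnt5b* at -2.66 and 4.54. The added 0.1 CPM limits how far *Rspo2* can fall.

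Between PIN and WT no member was called, 1 of 27 had an unadjusted p under 0.05 in edgeR's test (*Wnt4*), where 492 of the 14034 genes did, and DESeq2 and limma-trend called none. Over all genes, 0% were called higher and 0% lower. *Wnt4* and *Wnt5a* lay above the WT range in all 3 PIN libraries and *Fzd5* and *Fzd8* below it, 2 and 2 of 27 where 6.48% and 6.38% of all genes did so, which is close to the members' share. The log2 fold changes of *Wnt5a*, *Rspo2* and *Rspo3* were 0.89, 0.99 and 0.61, with standard errors of 0.66, 0.64 and 0.73. The members' median was 0.02 and that of all genes -0.02. Against PIN, the tumors lay above the range for 4 members and below it for 9, where 21.1% and 23.2% of all genes did so.

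Other genes of the pathway were counted in 4 lists. Of the genes for Wnt secretion and receptor turnover, 13 of 18 were tested, and *Notum*, a secreted enzyme that removes the Wnt lipid, was higher in PCa against WT and against PIN. *Notum* had 1.04 to 3.26 CPM in WT, 12.49 CPM in PCa 1 and 150 CPM in PCa 2. The lowest log2 fold change of this list in PCa against WT was that of *Reck*, a co-receptor for WNT7 signals, at -2.23 (adjusted p = 0.149, edgeR). *Lgr4* and *Lgr5*, the R-spondin receptors, and *Znrf3* and *Rnf43*, the ligases that remove Frizzled receptors, were not called by edgeR. They are named after their values were seen. *Lgr4* had 52.2 to 79.3 CPM in WT, 76.5 CPM in PCa 1 and 9.94 CPM in PCa 2, and *Lgr5* the reverse order, with 0.129 CPM in PCa 1 and 321 CPM in PCa 2. *Znrf3* had 37.5 to 75.8 CPM in WT, 36.5 CPM in PCa 1 and 750 CPM in PCa 2, and *Rnf43* had 31.4 to 47.6, 17.4 and 208 CPM. Of the tumors, PCa 2 alone was above WT for *Znrf3* and *Rnf43*, as it was for *Wnt5b* and *Wnt6*.

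Of the Dishevelled and destruction complex list all 14 were tested. *Btrc*, a ligase subunit that marks β-catenin for breakdown, was lower in PCa against WT (log2 fold change -1.10, adjusted p = 0.0345, edgeR) and against PIN (-1.32, 0.0291). *Csnk1e*, a kinase of Dishevelled, was higher against PIN alone (1.29, adjusted p = 0.0458). *Axin2*, a target and inhibitor of β-catenin signaling, had the highest log2 fold change against WT, 1.46 (adjusted p = 0.323), with 102 to 150 CPM in WT, 42.7 CPM in PCa 1 and 681 CPM in PCa 2. PCa 1 was below every WT library for *Axin2* and PCa 2 above every one. Of the planar cell polarity list 13 of 14 were tested, and *Vangl1* and *Vangl2*, membrane proteins that lie beside Frizzled in polarized cells, were higher in PCa against WT with log2 fold changes of 1.21 and 2.79 (adjusted p = 0.0305 and 0.0341, edgeR). *Daam2* had the lowest value, -2.44 (adjusted p = 0.0897). Of the secreted antagonists 7 of 11 were tested, and *Dkk2*, a ligand of LRP6, was higher against WT and PIN. *Dkk2* had 0.634 to 4.05 CPM in WT, 1.83 to 4.54 CPM in PIN and 28.3 and 35.8 CPM in PCa. *Sfrp2*, which binds Wnt proteins, had the lowest value at -1.80 (adjusted p = 0.300). None of the genes tested in these lists was called in PIN against WT. The 9 calls of *Notum*, *Btrc*, *Csnk1e*, *Vangl1*, *Vangl2* and *Dkk2* held in 5 to 12 of 15 alternatives, and each was lost without WT 3 and without PIN 3.

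Some members share their position with another gene of the count table. *Wnt5a*, *Wnt5b*, *Wnt7b*, *Rspo1* and *Rspo4* overlap *Gm2670*, *Fbxl14*, *AU022754*, *Gm12930* and *Gm14157* on the opposite strand, and *Ror1* overlaps *Gm12701* on its own strand. The overlap is of whole gene spans, introns included, and overlap of exons was not checked. As the strand setting of the counting was also not given in the sources used here, whether these pairs share any reads is not known.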

How the data were processed

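Total RNA of 3 WT, 3 PIN and 2 PCa mouse prostate tissues was depleted of ribosomal RNA and sequenced paired-end. Per the submitters' processing notes, reads were trimmed with cutadapt 1.9.1, aligned to mm9 with HISAT2 2.1.0 and counted per gene with HTSeq 0.6.1. The values deposited by the authors are raw counts per gene, with 0 other per-sample columns, and summed exon lengths, another kind of value, that gave the levels per kilobase. Groups and replicate numbers came from the labels. Counts were analysed with edgeR 4.0.16 in R 4.3.3. The test, the trimmed mean of M-values and the filter (more than 1 CPM in at least 2 libraries) come from the methods. The methods name TPM values as the input, where raw counts were used here because the test models counts. They also ask for concordance with upper-quartile normalization, which was an alternative here and not a condition, and use Clipper, which was not run. All 8 libraries entered 1 model of 3 groups with 5 residual degrees of freedom, and p-values were adjusted over 14034 genes. Standard errors were derived from the fold change and F statistic.

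The members and lists were chosen with earlier results of these data known. Values in every library are given for members called in any comparison, for the 3 highest per kilobase in each role, and for tested members over 8-fold apart between the PCa libraries with the higher above 5 CPM. *Wnt16* and the plotted panels were added after their values were seen. The other lists name called genes and the extremes in PCa against WT. *Tiki1* and *Tiki2* were not matched by symbol. The script was tested on simulated data with a lower coefficient of variation than these data and no added difference between the PCa libraries. That test does not show how calls behave at the spread seen here. The 15 alternatives were upper-quartile normalization, DESeq2 1.42.0, limma-trend 3.58.1, no filter, filterByExpr, only the groups compared, a replicate block and leaving out each library. TPM was an alternative for levels alone and not for calls. Depth limits genes with few counts.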

Additional observations from a re-analysis of the deposited data

How the results depend on the processing

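With 2 PCa libraries that differ from each other, the count of members called depends on the model. In PCa against WT 5 were called, 12 with DESeq2, 1 with only the groups compared and 1 to 14 when each library was left out in turn (14 without PCa 1, 1 without WT 3). In PCa against PIN 3 were called, 6 with DESeq2, 1 with only the groups compared and 0 to 10 with a library left out (10 without PCa 1, 0 without PIN 3). Without a PCa library the other is assumed to vary like the WT and PIN libraries. With only the groups compared, *Wnt4* alone was called against WT and *Rspo2* alone against PIN. With the replicate number as a block the counts were 2 (*Wnt4* and *Rspo2*) and 1 (*Rspo2*). The numbers were not taken to pair libraries, since nothing in the labels says that they do. Deviations of same-numbered libraries correlated at 0.206, 0.00287 and -0.0161 between WT and PIN, at 0.284 and 0.216 between WT and PCa, where only 2 pairs exist, and at 0.0564 and -0.0562 between PIN and PCa. In PIN against WT 0 members were called under each alternative. Over all genes the counts in PCa against WT were 1198, 2487 with DESeq2, 130 with only the groups compared, 413 with the block and 347 to 2477 with a library left out, and in PCa against PIN 803, 1984, 388, 151 and 78 to 2251. In PIN against WT DESeq2 called 39 genes where edgeR called 0.

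Of 31 log2 fold changes of members given, 465 values under alternatives held 387 that kept their direction and side of the threshold and 11 that reversed, all on leaving out a library. In PCa against WT these were *Wnt2* (-4.29 to 0.027), *Wnt5b* (-2.97 to 4.60), *Wnt6* (-0.40 to 4.92), *Fzd7* (-1.38 to 0.42), *Rspo1* (-8.06 to 0.38), *Lrp5* (-0.21 to 0.67), *Lrp6* (-0.18 to 0.098), *Ryk* (-0.48 to 0.20) and *Porcn* (-1.12 to 1.96). *Lgr4*, *Lgr5*, *Znrf3* and *Rnf43* were not followed under the alternatives. Of the other pathway genes named, *Axin2* alone reversed (-1.61 without PCa 2, 2.38 without PCa 1). DESeq2 also called *Daam2* and *Reck*, and the call of *Btrc* against WT was lost with upper-quartile normalization. Levels as TPM rather than CPM per kilobase keep the order of genes within a library, but the scale differs from library to library. Comparisons between libraries can therefore change. As TPM, *Wnt7b* stood at 23.35 to 26.6 in WT and at 55.7 and 40.6 in PCa, above WT in both tumors. The ligand and Frizzled sums were not made as TPM. The cause of the differences between settings was not tested.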
